A study of Mus musculus with 116 samples.

Results

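Cycling v-Abl-transformed mouse pro-B cells (B-lineage precursors immortalised with the v-Abl oncogene) with and without DNA ligase IV were compared for the way they joined a Cas9 break in the c-Myc gene. The comparison holds 6 of the 116 samples of the series, chosen by their labels: 3 libraries of Lig4-/- clone A1 and 3 libraries of WT clone A. All 6 carry the Emu-Bcl2 transgene, were cycling, were nucleofected with Cas9 and a guide RNA against c-Myc, and were sequenced on a MiSeq. The WT cells therefore differ from unmodified pro-B cells in carrying both v-Abl and Emu-Bcl2. Each genotype is 1 clone, so clone and genotype cannot be told apart. How clones A and A1 are related, and whether the 3 replicates were separate cultures, is not stated in the labels, so p-values measure the spread between libraries, which may be technical. For 1 comparison the same 2 clones were also taken as G1-arrested cells, held for 96 h in 3 µM of the v-Abl kinase inhibitor STI-571 before the break (3 libraries a genotype, all normalised by the authors to the same number of raw reads, 310675). No transcript or protein was measured in these genomic DNA libraries, so the genotype rests on the labels.

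Classical non-homologous end joining starts when the Ku heterodimer binds the broken ends, and it closes when ligase IV, bound to XRCC4, seals them. Ends can also be joined without ligase IV, by alternative end joining, in which resected strands anneal at a few matching bases (a microhomology), the flaps are trimmed and another ligase seals the nick. The trimmed bases are lost, so such joins carry deletions. Resection is more active in the S and G2 phases of the cell cycle than in G1, and cells in those phases can also repair by homologous recombination. Myc encodes a transcription factor that drives growth, and its locus is a common translocation partner in B-lineage tumours.

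The break lay on chromosome 15 (mm10) between positions 61987303, the last base of the bait, and 61987304, the first base of the prey, inside the Myc gene (61985341 to 61990361 in the RefSeq table of GRCm38.p6). Exon and intron annotation was not used here. In this assay a primer in the bait reads across the join into the prey, whatever sequence the broken end was joined to. The labels do not give the guide. In the plus strand read by the libraries, a GGG that can serve as a Cas9 PAM lay 3 bases after the break. The sequence at chr15:61987274-61987333 is shown with that GGG in capitals, as the most frequent base of the reads at each position, and the break falls between its 30th and its 31st base.
unbroken site: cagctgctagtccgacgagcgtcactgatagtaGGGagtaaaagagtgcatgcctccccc
The 4 joins printed next were among the 5 most frequent of WT cells. Capitals mark inserted bases in the join with 1 base inserted and bases shared by bait and prey in the join with 3 bases lost, and the other two are direct joins with no inserted or shared base.
WT, 1 base inserted: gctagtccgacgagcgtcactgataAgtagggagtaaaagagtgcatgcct
WT, 2 bases lost: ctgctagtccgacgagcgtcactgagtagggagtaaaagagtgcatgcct
WT, 1 base lost: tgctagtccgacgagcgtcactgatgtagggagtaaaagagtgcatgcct
WT, 3 bases lost: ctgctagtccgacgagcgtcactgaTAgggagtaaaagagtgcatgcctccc
The next 5 joins were the most frequent of Lig4-/- cells, with the shared bases in capitals.
Lig4-/-, 9 bases lost: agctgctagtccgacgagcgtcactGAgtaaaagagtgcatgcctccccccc
Lig4-/-, 27 bases lost: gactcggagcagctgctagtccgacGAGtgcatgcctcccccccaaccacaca
Lig4-/-, 29 bases lost: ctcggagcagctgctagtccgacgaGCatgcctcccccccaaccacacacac
Lig4-/-, 19 bases lost: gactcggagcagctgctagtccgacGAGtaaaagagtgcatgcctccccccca
Lig4-/-, 44 bases lost: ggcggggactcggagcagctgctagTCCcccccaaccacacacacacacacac
Each printed join is the most frequent read sequence of its form, with up to 25 bases on each side. A form is one combination of bait end, prey start, orientation and number of inserted or shared bases. Each of the 5 Lig4-/- forms lost bases on both sides of the break, whereas each of the 4 WT forms starts its prey at the break or 1 base after it.

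Cycling Lig4-/- cells still joined this break often. The authors' lists held 10022, 13060 and 10829 junctions for Lig4-/- replicates 1 to 3 and 14024, 10909 and 16293 for WT replicates 1 to 3. Per 100000 raw reads that was 3226, 4204 and 3486 junctions in Lig4-/- and 4514, 3511 and 5244 in WT. The ranges overlapped, and the mean difference of -0.27 ± 0.20 on the log2 scale (SE, n = 3 a genotype) was within what relabelling the libraries gives (exact permutation test, two-sided, p = 0.2). The number of distinct forms showed the opposite order, with 2438, 2847 and 2695 in Lig4-/- against 2240, 1810 and 1701 in WT. No Lig4-/- library had as few distinct forms as any WT library (log2 difference 0.48 ± 0.14 SE, exact permutation p = 0.1). With 3 libraries against 3, p = 0.1 is the smallest value the exact test allows. Of the 17 measures tested, 15 did not overlap between genotypes and had that p, which became 0.113 after Benjamini-Hochberg adjustment over the 17 exact tests. Exact rejoining and exact rejoining with an insertion, both among the 15, had the same values in every library and are 1 result. No measure could therefore reach 0.05 here, and the comparisons below are read against the spread between libraries.

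The join that nearly vanished without ligase IV was rejoining of both ends at the break with bases inserted between them. It made up 5376, 3026 and 6073 junctions in WT (38.3%, 27.7% and 37.3% of the library) and 2, 10 and 5 junctions in Lig4-/- (0.020%, 0.077% and 0.046%). The groups were far apart, at 34.4% ± 5.84 in WT and 0.048% ± 0.028 in Lig4-/- (SD, n = 3, exact permutation p = 0.1). Rejoining at the break with no base inserted restores the cut sequence, and the lists held 0 such junctions in each of the 6 libraries. All shares are therefore shares of listed junctions, not of all repair. Counting each distinct fragment once per library (the same form with the same prey end), the share was 9.68% ± 2.21 in WT and 0.068% ± 0.027 in Lig4-/-. The rejoin with 1 inserted base held 251, 248 and 255 fragments in 3635, 2828 and 4893 WT junctions. Its fragments did not follow its junctions, so the fragment share is not a corrected frequency.

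**Figure D1:**
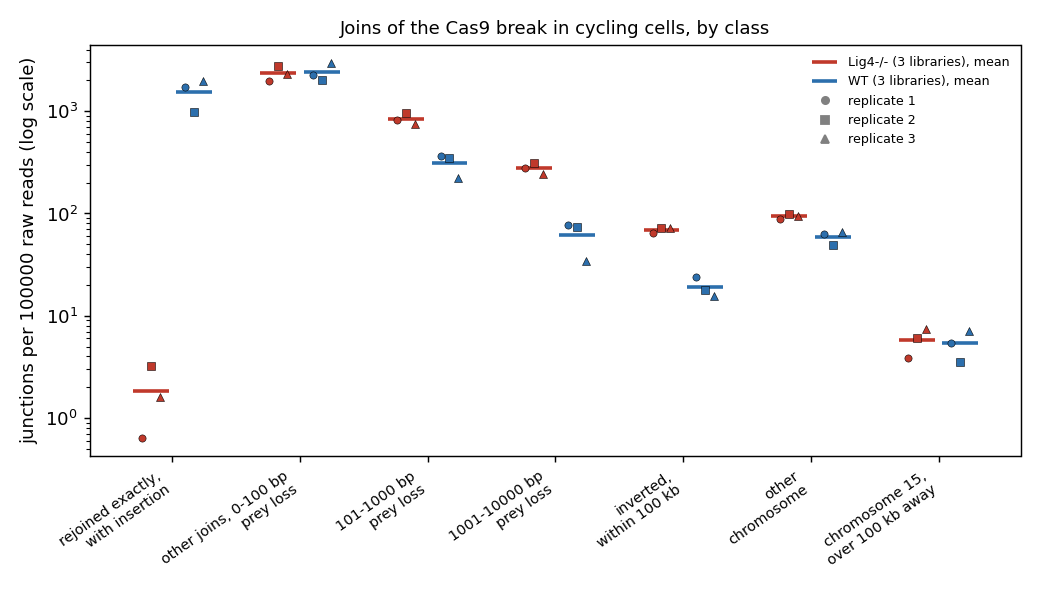
Junctions per 100000 raw reads in each class of join (log scale), for 3 Lig4-/- and 3 WT libraries of cycling cells, with the mean as a line. Exact rejoining with an insertion lies between 974 and 1955 in WT and between 0.64 and 3.22 in Lig4-/-, other joins with up to 100 bp of prey lost overlap, and deletions over 100 bp, inversions and interchromosomal joins are higher in every Lig4-/- library.

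The WT insertion at the break was mostly a single A. One base was inserted in 3635, 2828 and 4893 WT junctions, and it was an A in 88.0%, 98.1% and 94.2% of them. A is also the last base of the bait before the break. Rejoins with 2 or more inserted bases varied more between WT libraries, at 1741, 198 and 1180 junctions, or 32.4%, 6.54% and 19.4% of the WT rejoins. WT replicate 2 was the lowest, and it shared its sequencing run with WT replicate 3. In arrested WT cells 54.0%, 47.3% and 58.0% of the rejoins had 2 or more inserted bases, above each cycling WT library, and the single base was an A in 72.0%, 75.6% and 72.8%. Among 2-base insertions of cycling WT cells, GG was the most frequent of the 4 counted in replicate 1 (245 junctions, with AA at 208), while AA led in replicates 2 and 3 (39 and 146 junctions, with GG at 6 and 114). In Lig4-/- the 17 rejoins of all 3 libraries were too few to describe by base.

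Away from exact ends the genotypes were less far apart in insertions. Insertions outside exact rejoining numbered 1680, 2131 and 1768 in Lig4-/- and 3088, 1692 and 3024 in WT, which overlapped (exact permutation p = 0.3). As shares of the joins outside exact rejoining they did not overlap. They made up 16.8%, 16.3% and 16.3% of these joins in Lig4-/- and 35.7%, 21.5% and 29.6% in WT (exact permutation p = 0.1). Insertions of 11 or more bases were the exception to the lower insertion share, at 3.50% ± 0.33 of junctions in Lig4-/- and 1.77% ± 0.60 in WT (SD, n = 3), without overlap. Insertions of 5 to 10 bases did not differ beyond the spread, at 3.60% ± 0.16 and 3.59% ± 1.22 (exact permutation p = 1). In insertions of 2 to 8 bases outside exact rejoining, G made up 17.2%, 18.7% and 18.4% of the inserted bases in Lig4-/- and 33.1%, 19.5% and 30.1% in WT. C made up 30.01%, 28.2% and 25.3% in Lig4-/- and 22.8%, 21.3% and 22.6% in WT, and T made up 18.6%, 18.5% and 17.4% against 12.9%, 16.7% and 13.1%. G was lower and C and T were higher in every Lig4-/- library (exact permutation p = 0.1 for each), although WT replicate 2 lay close to the Lig4-/- libraries in G and T. A overlapped (exact permutation p = 0.9). The restriction to joins outside exact rejoining was chosen after seeing the data, and with exact rejoins included G, C and T also separated the genotypes.

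Longer insertions could be copies of nearby sequence, so those of 8 to 30 bases were searched on both strands in the 401 bp around the break (chr15:61987203-61987603). Distinct insertions of that length numbered 245, 303 and 269 in Lig4-/- and 266, 187 and 170 in WT. An exact match lay in the window for 31.02%, 30.03% and 35.32% of them in Lig4-/- and for 21.43%, 20.86% and 20.59% in WT. The groups did not overlap (difference 11.2 percentage points, exact permutation p = 0.1). A match describes the letters only, and a match by chance was not separated from a copy.

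Microhomology marked most Lig4-/- joins. Overlaps of at least 2 bases were present in 60.92%, 62.34% and 61.22% of Lig4-/- junctions and in 19.13%, 28.99% and 14.96% of WT junctions. The mean difference was 40.5 ± 4.18 percentage points (SE, n = 3 a genotype, exact permutation p = 0.1), and every Lig4-/- library exceeded the highest WT library by more than the whole WT range. Within the 2 sequencing runs that held both genotypes the difference was 39.2 and 42.5 percentage points. The overlap is that of the 2 alignments on the read, so a long one can hold a mismatch.

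**Figure D2:**
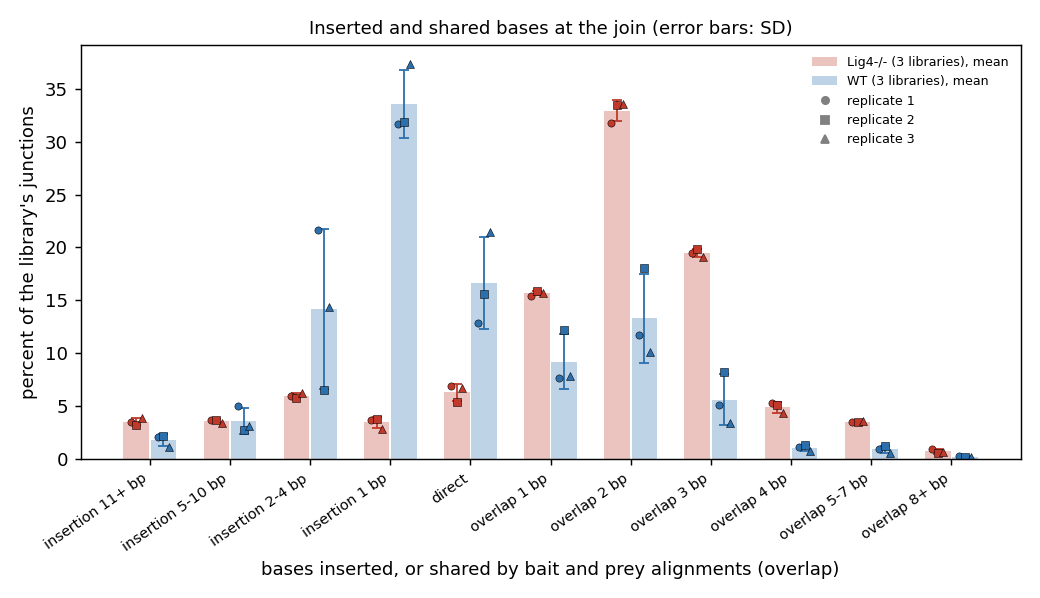
Percent of each library's junctions by number of inserted bases or of bases shared by bait and prey (overlap), with bars for the mean and error bars for the SD over 3 libraries. WT libraries peak at 1 inserted base (31.6% to 37.3%) and Lig4-/- libraries at 2 shared bases (31.8% to 33.6%).

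Most of the gain lay in short microhomologies. Overlaps of 2 bases made up 32.9% ± 1.00 of Lig4-/- junctions against 13.3% ± 4.22 in WT, and overlaps of 3 bases 19.5% ± 0.38 against 5.60% ± 2.45 (SD, n = 3). Overlaps of at least 4 bases were rarer in both, at 9.69%, 9.04% and 8.51% in Lig4-/- and 2.24%, 2.68% and 1.48% in WT. Among joins without an insertion the mean overlap was 2.26, 2.24 and 2.23 bases in Lig4-/- and 1.48, 1.53 and 1.05 in WT. Direct joins went the other way, at 6.85%, 5.36% and 6.69% in Lig4-/- and 12.9%, 15.6% and 21.4% in WT. Joins with 1 shared base also made up more of the Lig4-/- junctions, at 15.7% ± 0.23 against 9.20% ± 2.58.

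Numbers of junctions gave the same order as shares. Joins with 2 or more shared bases numbered 6105, 8142 and 6629 in Lig4-/- and 2683, 3163 and 2437 in WT from the same number of raw reads. Direct joins numbered 687, 700 and 724 in Lig4-/- and 1807, 1700 and 3490 in WT. Leaving out the exact rejoins, which have no microhomology, the share with 2 or more shared bases was 61.5% ± 0.77 in Lig4-/- and 31.02%, 40.12% and 23.85% in WT, still without overlap. The difference then fell from 40.5 to 29.9 percentage points. Counting each form once moved it further, to 38.4% ± 1.01 in Lig4-/- and 26.4% ± 2.54 in WT.

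Lig4-/- joins had lost far more sequence. Among joins in the rejoining orientation the median net loss was 52, 46 and 44 bp in Lig4-/- and 1, 5 and 1 bp in WT, and the 90th percentile was 995, 929 and 940 bp against 143, 216 and 48 bp. Neither quantile overlapped between genotypes. The measure tested, log10 of 1 plus the median bait and prey loss in bp, was 1.66 ± 0.053 in Lig4-/- and 0.62 ± 0.25 in WT (SD, n = 3, exact permutation p = 0.1). Bases were lost on both sides of the break in 97.6% ± 0.20 of these Lig4-/- joins and in 36.05% ± 11.97 of the WT joins (SD, n = 3). Loss from the bait alone was seen in 21.8% of WT and 1.08% of Lig4-/- joins, and loss from the prey alone in 6.93% and 1.27%. The bait side had lost at least 1 base in 98.6% ± 0.064 of all Lig4-/- junctions and in 58.5% ± 6.34 of all WT junctions (exact permutation p = 0.1), and its median loss was 13, 13 and 12 bases against 1, 2 and 1.

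**Figure D3:**
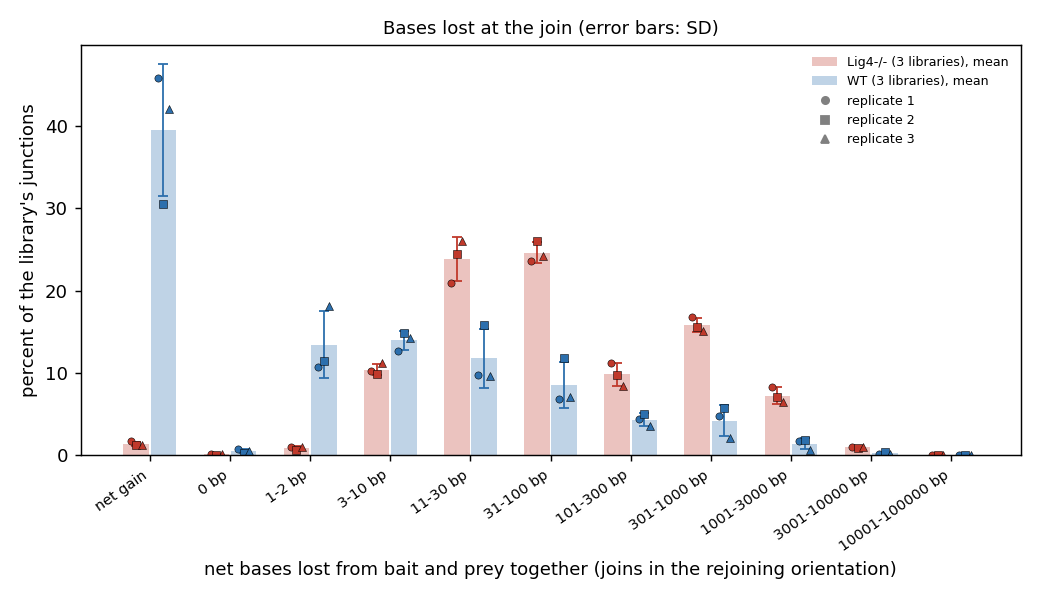
Percent of each library's junctions by net bases lost from bait and prey together, for joins in the rejoining orientation, with bars for the mean and error bars for the SD over 3 libraries. WT libraries are highest in the net gain bin (30.5% to 45.9%), and Lig4-/- libraries between 11 and 100 bp, with a further 15.1% to 16.8% between 301 and 1000 bp.

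The number of joins with 0 to 100 bp of prey lost did not separate the genotypes, and the number with more than 100 bp lost did. Joins other than exact rejoining with up to 100 bp lost from the prey numbered 6111, 8524 and 7182 in Lig4-/- and 6962, 6332 and 9125 in WT, which overlapped (exact permutation p = 0.8). This class includes joins with no prey base lost, and its median prey loss was 17, 17 and 15 bp in Lig4-/- and 2, 5 and 0 bp in WT. Within this class the joins differed in kind: 2 or more bases were shared in 55.9%, 58.2% and 57.9% of them in Lig4-/- and 24.5%, 34.1% and 19.9% in WT. By net loss, joins of 1 to 2 bp numbered 99, 88 and 110 in Lig4-/- and 1510, 1246 and 2952 in WT. Joins of 3 to 10 bp were also fewer in every Lig4-/- library. Those of 11 to 30 bp numbered 2094, 3199 and 2824 against 1368, 1730 and 1574, and those of 31 to 100 bp 2362, 3395 and 2621 against 966, 1287 and 1145. Deletions of more than 100 bp of prey numbered 3407, 3965 and 3083 in Lig4-/- and 1386, 1306 and 789 in WT. As shares of all junctions they were 30.9% ± 2.81 and 8.90% ± 3.67 (SD, n = 3), a difference of 22.0 ± 2.67 percentage points (SE, exact permutation p = 0.1). Those of up to 1000 bp numbered 2532, 2987 and 2334 against 1144, 1077 and 683, and those of 1001 to 10000 bp numbered 868, 969 and 747 against 242, 228 and 106. Both size ranges were higher in every Lig4-/- library.

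The share of junctions with 1 to 100 bp of prey lost, 63.2% ± 2.72 in Lig4-/- and 33.2% ± 7.53 in WT, depended on how rows were counted. With each form counted once per library it turned to 44.6% ± 1.61 and 54.4% ± 2.51, a difference of -9.81 percentage points, again without overlap. With each fragment counted once it was higher in Lig4-/- by 14.2 percentage points.

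At a given loss, the share of junctions with microhomology was still higher in every Lig4-/- library for 4 of the 7 size ranges compared. For joins that lost 3 to 10 bp net, 56.7%, 52.0% and 54.4% shared 2 or more bases in Lig4-/- and 30.2%, 37.6% and 26.4% in WT. These shares count junctions, so recurrent forms weigh more. The printed 9-bp deletion alone held 472, 538 and 533 of the 1023, 1282 and 1213 Lig4-/- joins in that range. In WT it held 276, 325 and 152 of 1784, 1625 and 2329. The printed 19-, 27- and 29-bp deletions lay in the 11 to 30 bp range. Shares by size with each form counted once were not computed. The genotypes also stayed apart at 11 to 30 bp (60.2% ± 1.57 against 43.8% ± 5.38), 31 to 100 bp (61.7% ± 3.42 against 49.0% ± 4.21) and 301 to 1000 bp (76.6% ± 0.23 against 68.9% ± 5.19; SD, n = 3). They overlapped between 100 and 300 bp (exact permutation p = 0.3) and from 3001 to 10000 bp (exact permutation p = 0.8). At 1001 to 3000 bp the shares were 69.2%, 71.3% and 65.8% in Lig4-/- and 62.2%, 68.1% and 75.7% in WT, with no difference beyond the spread (exact permutation p = 1). The WT bins at that size held only 238, 207 and 107 junctions.

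**Figure D4:**
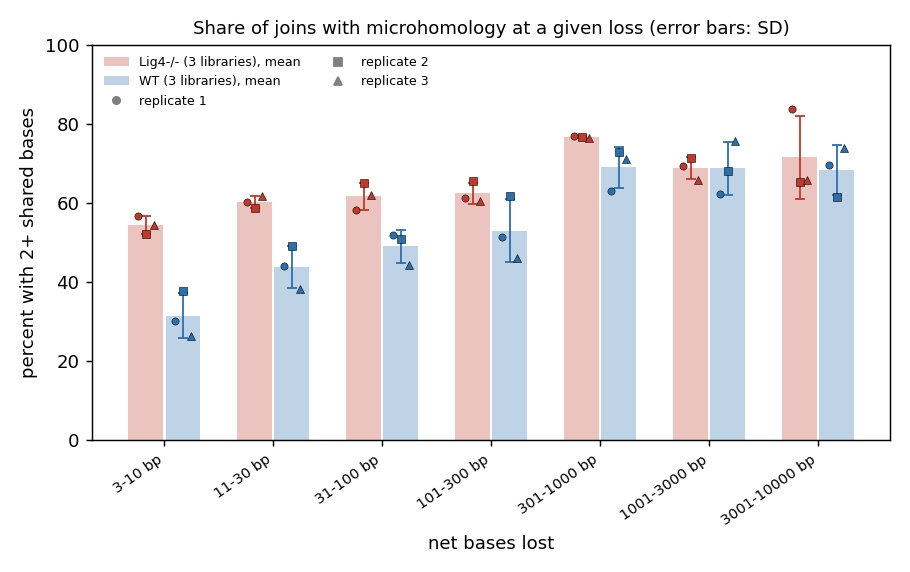
Percent of joins with 2 or more bases shared by bait and prey, by net bases lost, with bars for the mean and error bars for the SD over 3 libraries. The gap between Lig4-/- and WT is widest at 3 to 10 bp (54.4% against 31.4%) and absent at 1001 to 3000 bp (68.8% against 68.7%).

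Single junction forms were compared with limma on log2 values per 100000 raw reads. Of 772 forms with at least 10 junctions over the 6 libraries, 149 (19.3%) differed at an adjusted p below 0.05, 73 (9.46%) higher in Lig4-/- and 76 (9.84%) lower. The median of all 772 log2 differences was 1.08, and it was 1.35 when the same values were set per junctions of the library, so a single form is to be read against that shift. Of the 772 tested forms, 51.8% shared 2 or more bases, 19.4% were insertions, 10.8% were direct joins, 8.68% started their prey at the break and 38.6% had lost more than 100 bp of prey. Of the 73 higher forms, 66 (90.4%) shared 2 or more bases and 0 were insertions, while the 28 (38.4%) that had lost more than 100 bp of prey were at the share of all tested forms. Of the 76 lower forms, 51 (67.1%) were insertions, 17 (22.4%) direct joins and 2 (2.63%) had 2 or more shared bases, and 52 (68.4%) started their prey at the break. Of the 73 higher forms, 19 were at 0 in all WT libraries, and of the 76 lower forms, 34 were at 0 in all Lig4-/- libraries. Such forms passed the minimum of 10 junctions through the other genotype alone. The size of their change rests on the pseudocount, the constant added to each count before the log. The shares of called forms given above include them. With a pseudocount of 5 junctions 66 forms were higher and 69 lower. The counts of called forms and their balance also rest on few libraries. Called forms fell to 21 higher and 50 lower without Lig4-/- replicate 2, and to 18 higher and 52 lower without Lig4-/- replicate 3. They fell to 35 higher and 44 lower without WT replicate 1, and to 21 higher and 29 lower without WT replicate 3. With no minimum number of junctions 21 were higher and 52 lower.

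The most frequent Lig4-/- forms were present in WT too. The 9-bp deletion with the shared bases GA held 472, 538 and 533 junctions in Lig4-/- and 276, 325 and 152 in WT, and was the most frequent form of each Lig4-/- library (4.71%, 4.12% and 4.92%). Its log2 difference, 1.10 ± 0.28 (SE, limma adjusted p = 0.0097), was close to the median of all forms, and its adjusted p rose to between 0.051 and 0.114 when any Lig4-/- library or WT replicate 1 was left out. The 27-bp deletion with GAG held 264, 371 and 325 junctions against 90, 142 and 105 (log2 difference 1.52 ± 0.29, limma adjusted p = 0.0015). All Lig4-/- libraries lay above all WT libraries for both forms.

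The other 3 of the leading Lig4-/- forms behaved alike. The 29-bp deletion with GC held 238, 334 and 306 junctions against 86 to 141 in WT. The 19-bp deletion, which also joins at GAG but at a nearer prey site, held 196, 320 and 248 against 91, 131 and 56. The 44-bp deletion with TCC held 144, 273 and 192 against 65, 77 and 33. Their log2 differences were 1.43, 1.51 and 1.83 (limma adjusted p 0.0026, 0.0053 and 0.0025), and each lost its call in 1 to 3 of the fits without a library.

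Apart from the 3-bp deletion described below, the leading WT forms fell by far more. The single-base insertion printed above held 3635, 2828 and 4893 junctions in WT, in 251, 248 and 255 distinct fragments, and 1, 6 and 1 in Lig4-/-. The ratio of the summed junctions was 1420 (95% exact interval 720 to 3289, counting error only), and the limma log2 difference was -10.56 ± 0.47 (SE, adjusted p = 3.26e-12). The 2-base insertion held 954, 127 and 700 junctions in WT and 0, 0 and 1 in Lig4-/-. The 3-base insertion held 411, 37 and 273 in WT and 0 in all 3 Lig4-/- libraries, at least 240-fold lower against a floor of 3 junctions over the group. This form was not among the 5 most frequent of WT and was named for its fall. It passed the minimum of 10 junctions through WT alone, so its values are a description. WT replicate 2 was the lowest WT library for all 3 forms, and it still lay above each Lig4-/- library.

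Direct joins with tiny losses fell as well. The direct join that lost 2 bases of bait held 466, 491 and 1203 junctions in WT and 20, 15 and 22 in Lig4-/-. The ratio of the summed junctions was 37.9 (95% exact interval 29.1 to 50.2, counting error only, without the spread between libraries). The direct join that lost 1 base of bait held 446, 311 and 727 against 2, 0 and 2, and the one that lost 1 base of prey held 155, 152 and 364 against 0, 2 and 0. The latter was named for its fall among forms whose libraries did not overlap, so its values are a description. The 3-bp deletion with the shared bases TA behaved differently from the other leading WT forms. It held 193, 207 and 358 junctions in WT and 77, 81 and 67 in Lig4-/-, a log2 difference of -1.69 ± 0.33 (SE, limma adjusted p = 0.0015), so this microhomology join close to the break remained in all 3 Lig4-/- libraries.

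**Figure D5:**
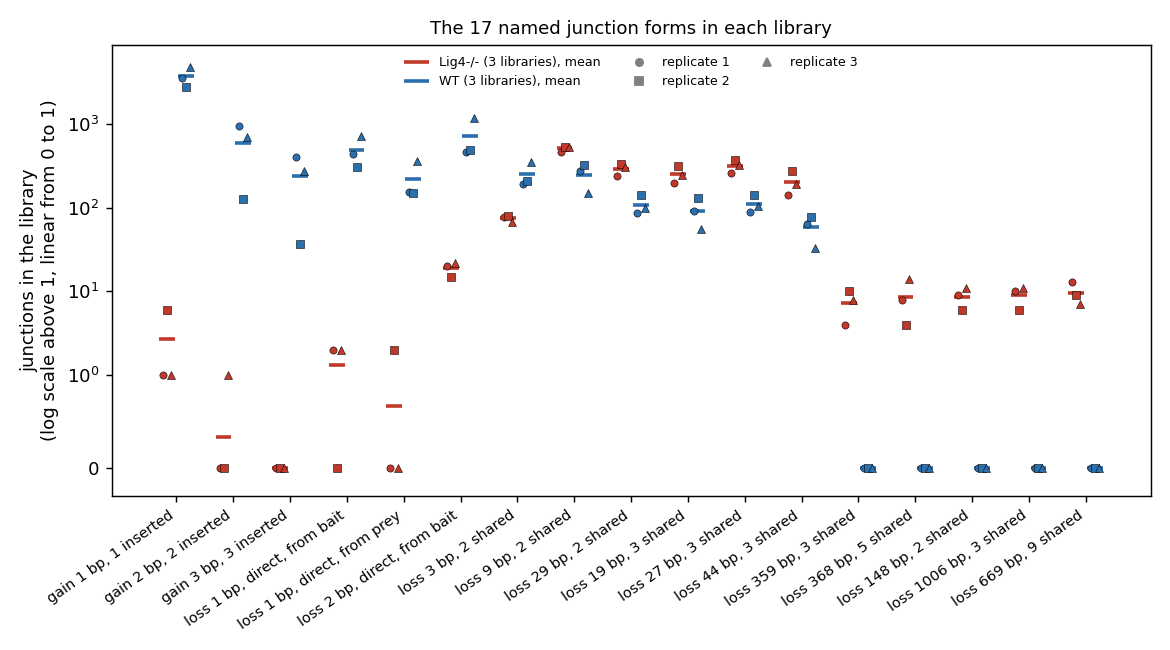
Junctions of the 17 named forms in each library, ordered by the log2 difference between genotypes (log scale above 1, linear from 0 to 1), with the mean of 3 libraries as a line. The 7 forms at the left are lower in every Lig4-/- library, the next 5 are the leading Lig4-/- forms, and the 5 at the right were listed at 0 in all WT libraries.

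The 5 forms with the largest fitted rises, named by rule, were rare long deletions at 0 in all 3 WT libraries and at 4 to 14 junctions in each Lig4-/- library. They passed the minimum of 10 junctions through the Lig4-/- libraries alone and were picked for not overlapping, so their values are a description. Their place as the largest rises rests on the pseudocount of 0.5 junctions: with a pseudocount of 5 their log2 differences were 1.27 to 1.53, below the 1.74 of the 44-bp deletion. The 5 rare forms lost 148, 359, 368, 669 and 1006 bp net with 2, 3, 5, 9 and 3 shared bases. The 669-bp deletion held 13, 9 and 7 junctions (at least 9.67-fold higher than the floor of 3 junctions over the WT group) in 3, 3 and 4 distinct fragments. The 1006-bp deletion held 10, 6 and 11 junctions in 1, 3 and 2 distinct fragments. The printed form of this join, with the shared bases in capitals, has the same bait end as the 29-bp deletion above.
Lig4-/-, 1006 bases lost: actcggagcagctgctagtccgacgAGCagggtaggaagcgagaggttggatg
How many separate joins these junctions hold was not tested.

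A few forms dominated WT libraries more than Lig4-/- libraries. The 10 most frequent forms held 49.1%, 44.7% and 56.1% of WT junctions and 18.2%, 21.3% and 21.8% of Lig4-/- junctions (exact permutation p = 0.1). Of each library's 10 most frequent forms, 9 were common to all 3 Lig4-/- libraries, 5 to all 3 WT libraries and 0 to all 6. Forms seen in a single junction made up 51.9%, 49.2% and 52.0% of forms in Lig4-/- and 56.9%, 52.5% and 51.3% in WT, which overlapped.

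Among joins that did not restore the order of chromosome 15, inverted joins were more frequent in Lig4-/-. Other classes of such joins on that chromosome overlapped. Inverted joins within 100 kb numbered 199, 224 and 223 in Lig4-/- and 74, 56 and 48 in WT, or 1.92% ± 0.18 and 0.45% ± 0.13 of junctions (exact permutation p = 0.1). Most inverted preys started on the bait side of the break (88% to 91% in Lig4-/-, 82% to 90% in WT). The median inverted prey lay 865, 935 and 676 bp before the break in Lig4-/- and 284, 296.5 and 278.5 bp before it in WT, without overlap. Joins in the same orientation that started before the break were few and overlapped, with 17, 14 and 18 junctions against 15, 25 and 31. Joins elsewhere on chromosome 15, over 100 kb away, numbered 12, 19 and 23 in Lig4-/- and 17, 11 and 22 in WT, with no difference beyond the spread (exact permutation p = 0.7).

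Joins to other chromosomes numbered 274, 304 and 295 in Lig4-/- and 194, 153 and 205 in WT. As shares of all junctions they were 2.73%, 2.33% and 2.72% against 1.38%, 1.40% and 1.26%, which did not overlap (difference 1.25 ± 0.14 percentage points, SE, exact permutation p = 0.1). Nearly every interchromosomal junction was a form of its own (273 of 274, 303 of 304 and 295 of 295 in Lig4-/-, and all of them in WT), and the same held for inversions. Deletions over 100 bp, by contrast, held 783, 1002 and 942 forms in 3407, 3965 and 3083 junctions in Lig4-/-. How repeated reads were treated in each class is not given in the sources used here, so a share over all junctions mixes classes that recur with classes that do not. Over distinct forms the interchromosomal share was 10.9% ± 0.28 in Lig4-/- and 9.72% ± 2.02 in WT, which overlapped (exact permutation p = 0.4), and over distinct fragments it was 5.12% ± 0.37 and 3.45% ± 0.36, which did not.

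In interchromosomal joins the genotypes did not separate by microhomology. Overlaps of 2 or more bases were present in 27.7%, 28.9% and 28.5% of them in Lig4-/- and in 35.1%, 27.5% and 30.7% in WT (exact permutation p = 0.4). Insertions were present in 54.0%, 52.6% and 54.9% in Lig4-/- and in 41.8%, 41.8% and 37.6% in WT, without overlap and higher in Lig4-/-, whereas among all junctions they were lower. The difference between classes of join was not tested. The bait had lost a median of 26, 26 and 28 bases in Lig4-/- and 25, 17 and 14 in WT.

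No chromosome took a large part of the translocations. Chromosomes 1, 3, 2, 7 and 4 had the highest mean shares in Lig4-/- (7.62%, 7.29%, 6.95%, 6.92% and 6.70%), and chromosomes 9, 5, 4, 2 and 1 in WT (8.59%, 8.46%, 7.56%, 7.27% and 7.16%). Only chromosomes 3 and 5 did not overlap between genotypes among the 20 compared: chromosome 3 had 6.20%, 8.55% and 7.12% in Lig4-/- against 3.61%, 3.92% and 5.85%, and chromosome 5 had 7.30%, 6.25% and 6.44% against 8.25%, 9.80% and 7.32%. Each share rests on at most 32 junctions a library. Complete separation has an exact permutation p of 0.1 for a single chromosome, so among 20 chromosomes these separations are no more than relabelling gives. Windows of 1 Mb with at least 2 distinct forms in at least 2 libraries numbered 4 in Lig4-/- (on chromosomes 15, 17, 13 and 2) and 1 in WT (on chromosome 16). These numbers were not adjusted for the larger number of joins to other chromosomes in Lig4-/-. The chromosome 17 window held 2, 2 and 1 distinct forms in Lig4-/- and 0, 4 and 0 in WT. The window at chr15:62000001-63000000, next to the break, held 3, 3 and 5 distinct forms in Lig4-/- and 1, 1 and 1 in WT. The Jk interval of the Igk locus (chr6:70720562-70725923, the Jk segments of the RefSeq table with flanks) is where the RAG recombinase cuts in arrested pro-B cells. In G1-arrested WT cells of these clones 7 of 15888, 36 of 27583 and 32 of 28933 junctions joined to it. In arrested Lig4-/- cells 0 of 74, 11 of 100 and 0 of 85 did. The 11 lay in replicate 2 alone, where 62% of junctions held an insertion, against 16.2% and 11.8% in replicates 1 and 3. In cycling cells joins to this interval numbered 0, 0 and 1 in WT and 0 in the 3 Lig4-/- libraries.

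Arrested cells of the same clones were compared last. All arrested libraries lay in other sequencing runs than all cycling libraries, so cell state and run cannot be told apart. Arrested Lig4-/- libraries held 74, 100 and 85 junctions and arrested WT libraries 15888, 27583 and 28933, from the same number of raw reads as the cycling libraries. The genotype difference in abundance was -8.08 on the log2 scale in arrested and -0.27 in cycling cells. The difference between these 2 differences was 7.81 (exact permutation test with genotype labels permuted within each state, 400 relabellings, p = 0.095; adjusted over 17 measures, p = 0.279). For distinct forms it was 4.25 (exact permutation p = 0.005, the smallest these relabellings can give, adjusted p = 0.085), since distinct forms were higher in Lig4-/- in cycling cells and lower in arrested cells. For direct joins the genotype difference was -10.3 percentage points in cycling and 1.44 in arrested cells (difference -11.8, exact permutation p = 0.03, adjusted p = 0.255). The genotype difference in mean overlap was 0.89 bases in cycling and 4.98 in arrested cells (exact permutation p = 0.1), and in the interchromosomal share it was 1.25 and 45.9 percentage points (exact permutation p = 0.1). Overlaps of 8 or more bases made up 29.7%, 11% and 32.9% of arrested Lig4-/- junctions and a mean of 0.70% of cycling ones. Overlaps of 2 bases made up means of 12.2% and 32.9%. Arrested Lig4-/- lists were 40.5%, 46% and 54.1% interchromosomal, and the part of this make-up in the mean overlap was not tested. No measure passed the adjusted threshold of 0.05, and the arrested Lig4-/- shares rest on 74 to 100 junctions a library. Relabelling within each state removes the genotype difference in both states. These p-values therefore do not test whether the genotype difference is the same in cycling and arrested cells.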

How the data were processed

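Joining of a Cas9 break was measured in 6 libraries of cycling cells and, for 1 comparison, 6 libraries of G1-arrested cells. The values of the deposited lists (read and genome positions of bait and prey, 1 row per junction read, no normalised unit) were made by the authors with a pipeline named JoinT-seq after setting each library to 310675 raw reads, per the labels. The submitters' processing notes name Bowtie2 and mm10, and other settings are not given in the sources used here. Per the labels' protocols the enzyme blocking step was omitted. Groups came from the titles. The members, measures and lists were chosen with earlier results of these data known.

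Read bases aligned to both bait and prey were shared bases (microhomology), and unaligned read bases between them were an insertion. Net loss added bait bases, prey bases and shared bases lost and subtracted inserted bases, so insertions can give a net gain. Abundance was log2(junctions + 0.5) per 100000 raw reads. The break was the most frequent bait end and prey start in cycling WT, so exact rejoining in WT is in part set by that choice. No clear duplicate library was found: replicates shared 0 read names and 14.4% to 24.0% of fragments. The structure of joins in Lig4-/- replicates 1 and 3 was alike by chi-square (p = 0.873, while other pairs differed), and both were kept since they lie in different sequencing runs and share 23.8% of forms. Junctions were counted as deposited. Reads carry no molecular identifiers, so intervals and floors cover counting error only, and 3 junctions correspond to 0.018% to 0.030% of a cycling library. Sequencing runs were read from the read names: 1 run held Lig4-/- replicates 1 and 2 with WT replicate 1, and 1 run held the other 3 cycling libraries. Arrested libraries lay in 3 other runs.

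Measures were compared by two-sided exact permutation tests (Python 3.11.15, numpy 2.4.6, pandas 2.3.3), and forms with limma 3.58.1 in R 4.3.3 with a trend and Benjamini-Hochberg adjustment over 772 forms, after a test on simulated data. Named forms were the 5 most frequent of each genotype and the 5 with the largest change in each direction among called forms whose libraries did not overlap. Printed sequences are the most frequent bases of the reads. Alternatives were single counting of forms or fragments, other pseudocounts, minimums and windows, the run, the replicate block and leaving out each library.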

Additional observations from a re-analysis of the deposited data

Results flagged for a closer look

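For 2 measures the difference between the genotype differences of cycling and of G1-arrested cells had an exact permutation p below 0.05, before adjustment over 17 measures. The relabelling removes the genotype difference in both states, so this p does not test whether the differences are equal. For distinct junction forms per 100000 raw reads the difference between states was 4.25 in log2 units (p = 0.005 by exact permutation, adjusted p = 0.085): Lig4-/- minus WT was 0.48 in cycling and -3.77 in arrested cells. For the share of direct joins it was -11.8 percentage points (exact permutation p = 0.03, adjusted p = 0.255): Lig4-/- minus WT was -10.3 in cycling and 1.44 in arrested cells, where the 2 genotypes overlapped. Depth moved with both, since arrested Lig4-/- libraries held 74 to 100 junctions and cycling libraries at least 10022, and the part of depth in these differences was not tested.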

How the results depend on the processing

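Of 185 recomputed values of the 17 measures, 180 kept their direction, and so did all 102 values with 1 library left out. Both exact rejoining measures enter these counts, with the same values except where ends within 2 bp of the break were allowed. The 5 that turned were abundance, from -0.27 to 0.48 over distinct forms and 0.0974 over distinct fragments, short prey deletions, to -9.81 percentage points over distinct forms, and joins over 100 kb away on chromosome 15, to -0.228 over forms and -0.00379 over fragments. Counting fragments once, and the overlap in the median deletion, were chosen after seeing the data. The 149 called forms became 73 with no minimum (21 higher) and 50 to 129 with 1 library left out (18 to 66 higher), and 117 with the sequencing run in the design. Against arrested cells, counting each form once gave 4.25 for abundance (exact permutation p = 0.005), -5.36 for direct joins (p = 0.095, exact), 5.44 for short prey deletions, 2.26 for inversions, 1.03 for distal chromosome 15 and -12.5 for the top 10 forms, the last 4 with the sign turned. With each form counted once, abundance is the distinct-form measure itself, in cycling cells too. The top 10 share is then 10 over the number of forms. Neither is a separate check. The cause of the other changes was not tested.

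Same-numbered libraries did not deviate together (correlations 0.0088, 0.0127 and 0.0138 over 772 forms), so the replicate numbers share only a number. With the replicate block limma called 145 forms, and the exact sign-flip test gave p = 0.25, its smallest value, for each measure whose groups did not overlap. For direct joins against arrested cells the block gave -11.8 with p = 0.0938 (exact sign-flip test). Of 199 refits of the 17 named forms, 187 kept the call and 12 lost it, all 12 with a library left out. The 3 libraries a genotype and the 74 to 100 junctions of arrested Lig4-/- libraries limit the precision.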
